A study of Mus musculus with 12 samples.

Results

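Ifng, which encodes interferon gamma, and 7 transcription factor genes of Th1 and effector T cells (Tbx21, Hlx, Eomes, Runx3, Zeb2, Id2 and Bhlhe40) were followed across 12 RNA sequencing libraries of mouse CD4 T cells. These 8 genes were chosen by name from their known roles and found by Ensembl ID among 39179 IDs in the count tables. Of the 8, 7 had enough counts to be tested, among 12189 genes tested in all, and Eomes did not. All cells carried the transgenic OT-II T cell receptor for the ovalbumin peptide OVA323-339. Cells called WT came from C57BL/6 x OT-II mice, carried Thy1.2 and were sorted as NKG2D+. Cells called KO came from OT-II x NKG2D-/- mice, which lack the activating receptor NKG2D encoded by Klrk1, and carried Thy1.1. Both were taken as naive cells from lymph nodes and spleen and cultured together with APCs (antigen-presenting cells), the peptide and a-CD28. Th1 cultures held IL-12 and IL-2, with a-IL-4, an antibody to IL-4. Cultures here called Th17, which the labels also call pTh17+IL12, held IL-23, IL-1b and IL-6 with the antibodies a-IL4 and a-IFNg, and IL-12 was given after their second stimulation. Cells were polarized on day 0 and day 5 and harvested on day 8. This gave 4 groups of 3 libraries, named Th1 WT and Th1 KO, Th17 WT and Th17 KO. Genotype, NKG2D gate and Thy1 allele change together in each comparison of KO with WT, so their parts cannot be told apart. The ages and the number of mice are not given in the sources used here, and nothing there says which libraries came from separate animals or cultures. The p-values therefore reflect variation among these libraries, and that variation may be technical. If WT and KO libraries came from shared cultures they would be paired, and the main test leaves such pairing out. Neighbouring library codes may mark such pairs, which the labels do not define, so a block by library code was fitted as an alternative only.

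Naive CD4 T cells that meet IL-12 and interferon gamma turn on STAT4 and T-bet, the product of Tbx21, and become Th1 cells that secrete interferon gamma. Hlx, Runx3 and Eomes are known to act with or beside T-bet at Ifng, whereas Zeb2, Id2 and Bhlhe40 take part in terminal effector differentiation or cytokine output of T cells. Th17 cells, which make IL-17, can acquire T-bet and interferon gamma when they meet IL-12, a change often described as plasticity toward Th1.

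Library totals were 9108203 to 12688637 counts in 9 libraries and 1647232 to 2731909 in the other 3, which were Th17 WT 2, Th17 WT 3 and Th17 KO 2. In those 3 shallow libraries 1 unnamed ID took 18.3% to 51% of the counts, against at most 0.00831% elsewhere, and all 3 lie in the Th17 groups. Mitochondrial transcripts made up 14.2% to 15.1% of the remaining counts in Th1 libraries, 16.9% to 18.6% in those of Th17 WT and 19% to 20.8% in those of Th17 KO. Klrk1 was 128 to 161 CPM in the WT libraries of both cultures and 1.6 to 5.63 CPM in the KO libraries, so each library matched its genotype label. CPM are counts scaled to a common library size after TMM, an adjustment for library composition. Summed markers of T cells stood at 9737 to 11037 CPM in Th1, 10420 to 11483 CPM in Th17 WT and 9791 to 10009 CPM in Th17 KO, and each of the 9 markers listed, Cd3e and Cd4 among them, was counted in all 12 libraries. Of 2 listed markers of CD8 T cells, Cd8a had 3 counts in all. The other, Cd8b1, had 439 counts, was counted in all 12 libraries and reached at most 6.52 CPM, in Th17 WT.

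Per kilobase of exon, which allows different genes to be compared, Ifng was the most abundant of the 8 genes in Th1 WT, at 578 ± 121 CPM per kb (SD, n = 3). Id2 followed at 153 ± 17.7 and Bhlhe40 at 116 ± 2.98. Tbx21 stood at 29.7 ± 3.86, Hlx at 14.5 ± 1.74, Runx3 at 11.4 ± 1.2 and Zeb2 at 0.636 ± 0.0539 CPM per kb. In Th17 WT the first place went to Bhlhe40, at 226 ± 10.9 CPM per kb, ahead of Ifng at 150 ± 25.3 and Id2 at 93.3 ± 11.9. In Th17 KO Ifng stood at 42.5 ± 11.2, behind Bhlhe40 at 218 ± 14.1 and Id2 at 82.6 ± 14.5 CPM per kb. Tbx21 held the fourth place in all 4 groups. The per-kb level of Zeb2 is low partly by construction, because its annotated exons add up to 19942 bases, against 1295 for Ifng.

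**Figure D1:**
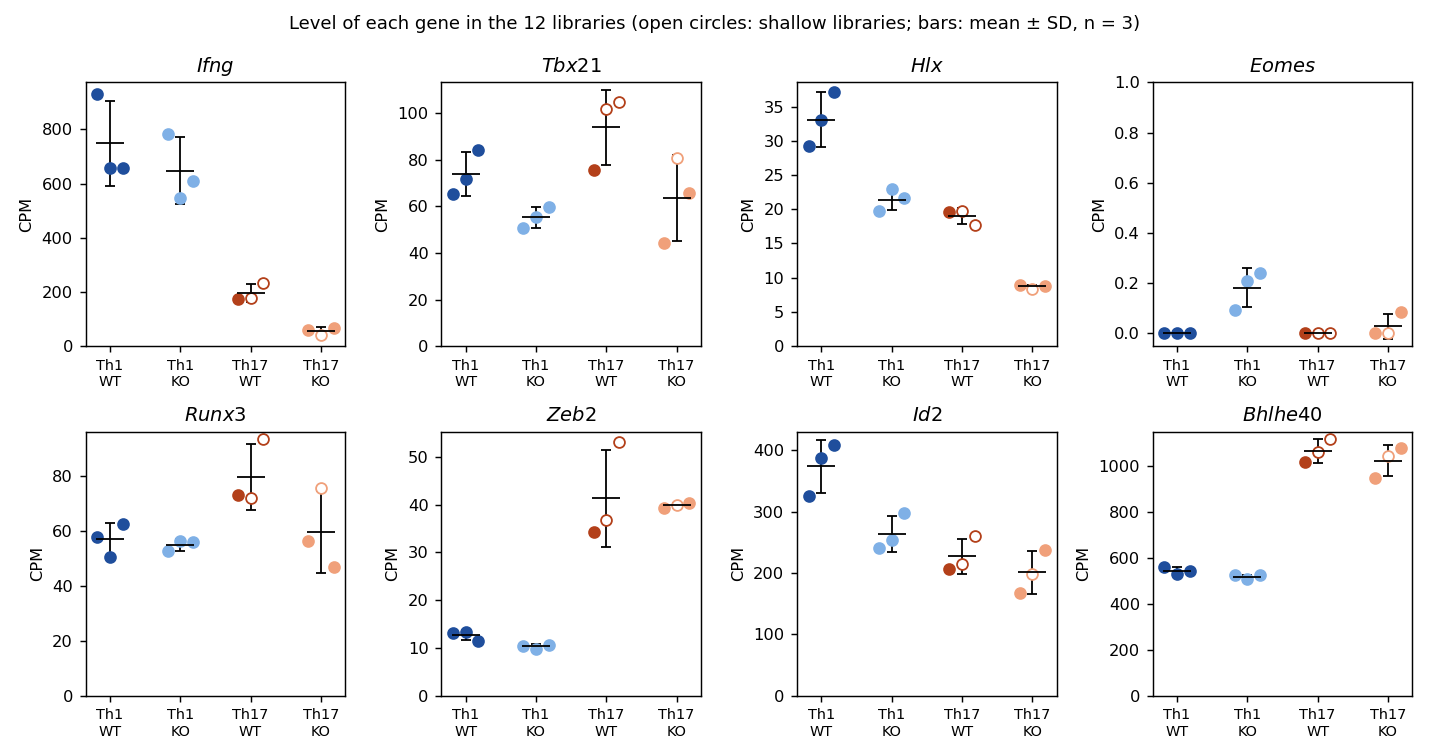
CPM of the 8 genes, the untested Eomes among them, in each of the 12 libraries, by group, with the shallow libraries drawn as open symbols. Each point is 1 library and the bars are group means ± SD (n = 3). Ifng runs from 38.9 CPM in Th17 KO 2 to 929 CPM in Th1 WT 1, while Tbx21 stays between 44.3 and 105 CPM.

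The 300 bases around the annotated start of Ifng, Tbx21 and Hlx (250 before and 50 after it, 5′ to 3′ on the gene's strand, RefSeq, GRCm38.p6) are shown because Ifng and Hlx were the members lower in KO with separated ranges in the Th17 cultures and T-bet is the factor most tied to Ifng. The Ifng window is chr10:118440796-118441095 on the plus strand, the Tbx21 window chr11:97115282-97115581 on the minus strand and the Hlx window chr1:184732444-184732743 on the minus strand. Capitals mark matches, on either strand, to 5 motifs: T-box GGTGTGA, STAT TTCNNNGAA, RUNX TGTGGT, E-box CACGTG (the kind that Bhlhe40 binds) and ZEB CAGGTG.
Ifng: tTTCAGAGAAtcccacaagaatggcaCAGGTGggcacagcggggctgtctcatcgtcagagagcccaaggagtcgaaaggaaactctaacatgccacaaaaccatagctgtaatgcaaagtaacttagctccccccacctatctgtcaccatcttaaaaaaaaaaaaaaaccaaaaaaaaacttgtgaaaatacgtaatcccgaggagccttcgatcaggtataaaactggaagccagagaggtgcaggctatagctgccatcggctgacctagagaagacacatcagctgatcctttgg
Tbx21: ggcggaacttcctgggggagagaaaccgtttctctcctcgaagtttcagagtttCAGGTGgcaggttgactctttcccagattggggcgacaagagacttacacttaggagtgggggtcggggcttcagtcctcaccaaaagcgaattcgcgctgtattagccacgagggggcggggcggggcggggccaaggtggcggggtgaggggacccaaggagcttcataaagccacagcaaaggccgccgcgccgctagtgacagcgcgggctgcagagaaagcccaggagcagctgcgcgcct
Hlx: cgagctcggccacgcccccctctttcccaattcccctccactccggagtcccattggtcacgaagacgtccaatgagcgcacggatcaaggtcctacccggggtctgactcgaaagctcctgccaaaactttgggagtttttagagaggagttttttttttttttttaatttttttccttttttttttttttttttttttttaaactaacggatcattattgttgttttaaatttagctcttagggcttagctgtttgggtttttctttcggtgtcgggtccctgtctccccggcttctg
The Ifng window held a STAT match 249 bases and a ZEB match 224 bases before the start. The Tbx21 window held 1 ZEB match, 196 bases before the start, and the Hlx window held none of the 5. Among 32851 promoter windows of the same length, the STAT motif was in 8.3%, the ZEB motif in 20.2%, the RUNX motif in 16.8%, the E-box in 7.15% and the T-box in 3.98%, and no matches in the members' windows overlapped each other. Windows were found for 7 of the 8 genes, 11 in all, and Bhlhe40 had no entry. Beyond those shown, 1 Runx3 window held a ZEB match and a pair of RUNX matches, and a pair of Zeb2 windows that overlap each other held the same STAT match. These are matches of letters in a short window and were not tested for binding.

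Ifng (ENSMUSG00000055170, chromosome 10, 118441046 to 118445892 on GRCm38) differed most among the groups, with a 13.6-fold span between the highest and the lowest group mean. It was 929, 657 and 658 CPM in Th1 WT 1, 2 and 3, and 784, 547 and 611 CPM in Th1 KO. It was 174, 178 and 233 CPM in Th17 WT, and 59.3, 38.9 and 66.9 CPM in Th17 KO. The Th1 groups overlapped each other, all 6 Th17 libraries lay below all 6 Th1 libraries, and each Th17 KO library lay below each Th17 WT library. In Th17 cells Ifng fell 3.15-fold in KO, a log2 fold change of -1.66 ± 0.24 (SE, adjusted p = 0.00566, edgeR's quasi-likelihood test). In Th1 cells the difference was -0.21 ± 0.20 on the log2 scale (SE, adjusted p = 0.703). Under the block by library code this Th1 difference passed (adjusted p = 0.00934). With the 3 shallow libraries left out, only 1 Th17 WT library remains, taken to vary as much as the other groups do, and the Th17 difference was -1.47 ± 0.32 and did not pass (adjusted p = 0.116). With each of the 12 libraries left out in turn it stayed between -1.78 and -1.55, with an adjusted p from 0.0027 to 0.0361.

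Whether the genotype difference in Ifng itself differed between the cultures was asked with an interaction term. The Th17 difference was lower than the Th1 difference by 1.45 on the log2 scale (SE 0.31, unadjusted p = 0.00152), and this did not pass after adjustment (adjusted p = 0.109). DESeq2 gave -1.57 ± 0.35 and passed (adjusted p = 0.00244), as did the block by library code (-1.52 ± 0.09, adjusted p = 1.73e-14). Without the shallow libraries the term was -1.27 ± 0.38 (adjusted p = 0.376).

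**Figure D2:**
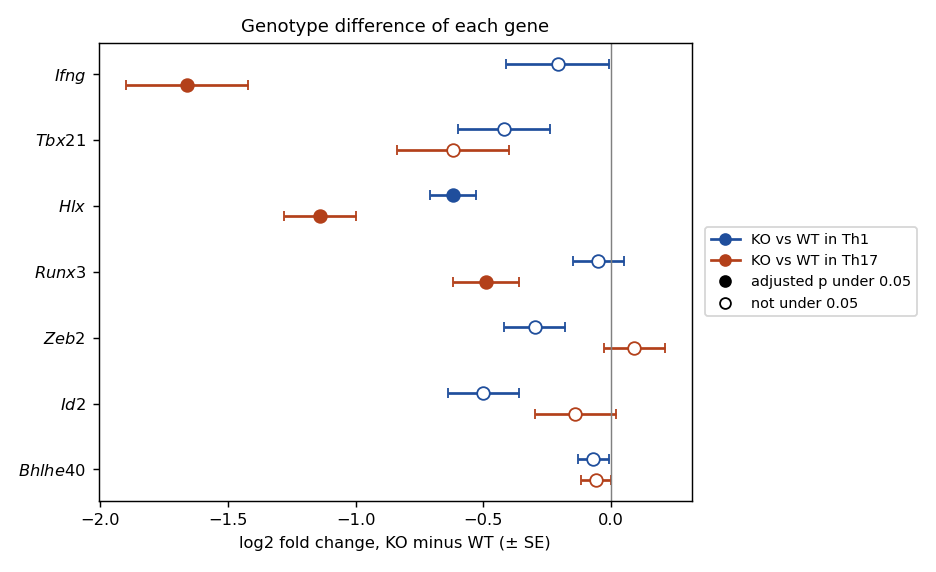
Log2 fold change of KO over WT for the 7 tested genes in Th1 and in Th17 cultures, with bars of 1 SE and filled symbols for an adjusted p under 0.05. Hlx passes in both cultures, Ifng and Runx3 pass in Th17, and Zeb2 (0.09) is the one point above 0.

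Several measures moved with Ifng between the Th17 genotypes. The mitochondrial share was higher in each Th17 KO library than in each Th17 WT library. The summed level of 7 listed NK and innate lymphoid cell markers was 18 to 24.9 CPM in Th17 WT and 5.06 to 6.47 CPM in Th17 KO, and 9.92 to 11.1 CPM in Th1 WT and 4.73 to 6.14 CPM in Th1 KO. Most of that sum was Kit, at 15 to 19.4 CPM in Th17 WT, and Klre1. Kit was lower in KO in Th17 (-1.92, adjusted p = 8.63e-07) and also in Th1 (-1.04, adjusted p = 0.00105), where Ifng did not pass. Klre1 passed as lower in Th17 KO (-2.55, adjusted p = 0.000568) and did not pass in Th1 (-0.7, adjusted p = 0.117). Of the markers that define NK cells, Ncr1 had 0 counts in all 12 libraries, Tyrobp had 0 counts in Th17 WT and Fcer1g reached at most 1.05 CPM. B cell markers, of which Ebf1 had most of the counts, summed to 8.31 to 16.4 CPM in Th17 WT and 21 to 23.4 CPM in Th17 KO, against at most 1.05 CPM in Th1 libraries. The summed T cell markers were also lower in each Th17 KO library than in each Th17 WT library. Most of that sum was Trac (7563 to 8521 CPM in Th17 WT, 7141 to 7219 in Th17 KO), which did not pass (-0.17, adjusted p = 0.249). Of the 9 markers Cd4 (-0.23, adjusted p = 0.0327) and Trbc2 (-0.22, adjusted p = 0.0479) passed as lower. Cd28 (-0.2) and Cd3d (-0.14) did not pass, Cd3e (-0.02), Cd3g (-0.02) and Trbc1 (-0.03) differed little, and Cd5 went the other way (0.13, adjusted p = 0.509). The part of these measures in the Ifng difference was not tested. In bulk samples fewer cells with a transcript and less transcript per cell cannot be told apart.

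Counts in the neighbourhood of Ifng on chromosome 10 were examined in the genes on each side of it. Il22, a cytokine gene of Th17 cells, had 30 counts over all libraries and Iltifb had 0. Dyrk2, which encodes a protein kinase, averaged 57.6 CPM in Th1 WT against 42.6 in Th1 KO, and 16.2 CPM in Th17 WT against 13.3 in Th17 KO. It was lower in KO in Th1 (-0.43 ± 0.08, log2 ± SE, adjusted p = 0.000734, 0.245 after thinning) and did not pass in Th17 (-0.26 ± 0.13, adjusted p = 0.319), and the interaction did not pass (0.17 ± 0.15, adjusted p = 0.809). The predicted gene Gm49751 shares 336 exon bases with Ifng on the same strand and was not analysed here, so reads in those bases could have been dropped or split in counting.

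Tbx21 (ENSMUSG00000001444, chromosome 11, 97098071 to 97115331), the gene of T-bet, was present in both cultures, and its group means spanned 1.7-fold. It was 65.5, 72 and 84.4 CPM in Th1 WT and 50.8, 55.4 and 59.8 CPM in Th1 KO. The Th17 libraries had 75.5, 102 and 105 CPM in WT, against 44.3, 80.9 and 65.6 CPM in KO. Th1 KO lay wholly below Th1 WT and the Th17 groups overlapped, and within each Th17 genotype the shallow libraries held the highest values. The KO difference was -0.42 ± 0.18 in Th1 (adjusted p = 0.299) and -0.62 ± 0.22 in Th17 (adjusted p = 0.187) on the log2 scale, and neither passed. The Th1 difference passed in a fit of those groups alone (adjusted p = 0.0281) and the Th17 difference with DESeq2 (adjusted p = 0.0203). Under the block by library code both passed (adjusted p = 2.85e-06 in Th1 and 6.04e-08 in Th17). The interaction was -0.20 ± 0.29 (adjusted p = 0.914). Between the cultures the Th17 minus Th1 difference was 0.26 ± 0.20 in WT (adjusted p = 0.349) and 0.06 ± 0.20 in KO (adjusted p = 0.836), and without the shallow libraries these were 0.03 and -0.03.

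The number of Ifng counts for each Tbx21 count is a ratio within a library that no scaling changes. It was 14.2, 9.13 and 7.79 in Th1 WT and 15.4, 9.87 and 10.2 in Th1 KO. In Th17 cells it was 2.3, 1.75 and 2.22 in WT and 1.34, 0.481 and 1.02 in KO. The Th1 groups overlapped, and both Th17 groups lay below them and apart from each other. With 3 libraries against 3, an exact two-sided permutation test cannot give a p below 0.1, so these ratios are given as a description. Over the 12 libraries the Pearson correlation of log2 CPM between Ifng and Tbx21 was -0.08, and 0.27 over the 9 deeper libraries.

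**Figure D3:**
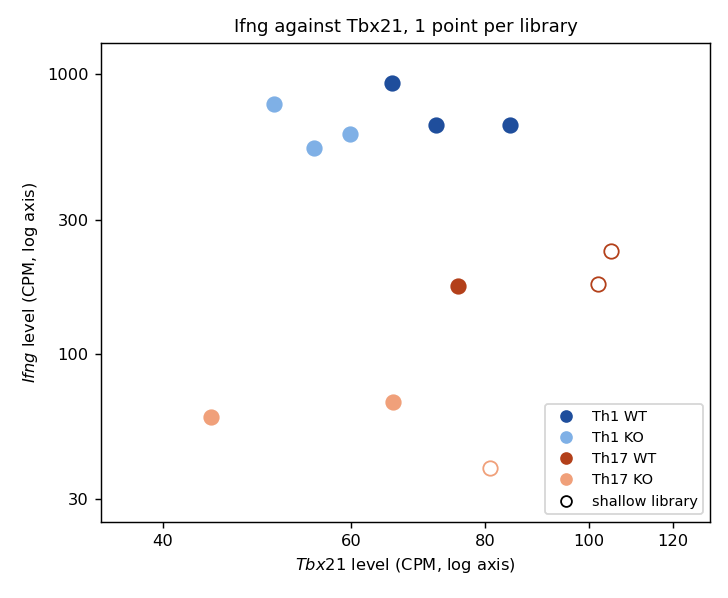
Ifng against Tbx21 in the 12 libraries, both in CPM on log axes, coloured by group with shallow libraries open. Along the Ifng axis the cultures and the Th17 genotypes lie apart, with Th17 KO at 38.9 to 66.9 CPM and Th17 WT at 174 to 233 CPM, while the Th1 genotypes overlap, and the groups share much of the Tbx21 axis.

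Hlx (ENSMUSG00000039377, chromosome 1, 184727140 to 184732619), a homeobox factor gene induced in Th1 cells, was lower in KO in both cultures. It was 29.2, 33.1 and 37.1 CPM in Th1 WT and 19.8, 22.9 and 21.7 CPM in Th1 KO. The Th17 values were 19.6, 19.8 and 17.7 CPM in WT, against 8.88, 8.4 and 8.82 CPM in KO. KO lay below WT in both cultures without overlap, while Th1 KO and Th17 WT met near 19.8 CPM. Hlx fell 1.54-fold in Th1 KO (-0.62 ± 0.09 on the log2 scale, adjusted p = 0.000101) and 2.2-fold in Th17 KO (-1.14 ± 0.14, adjusted p = 9.71e-06). The interaction, -0.51 ± 0.17, did not pass (adjusted p = 0.228). The Th17 groups held 298 Hlx counts in WT and 227 in KO. With all libraries thinned to the smallest total both calls were lost (0.29 and 0.134 as adjusted p), and without the shallow libraries both were kept (adjusted p = 0.000428 and 0.000415), with -0.62 and -1.15.

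Eomes (ENSMUSG00000032446, chromosome 9, 118478212 to 118486132), a T-box paralogue of Tbx21 used by CD8 T and NK cells, had 8 counts in all. The Th1 KO libraries held 1 to 3 counts each, Th17 KO 3 held 1, and the other Th17 KO libraries and all 6 WT libraries held 0. The upper limit for a count of 0, taken as 3 counts, was 0.208 to 0.235 CPM per library in Th1 WT and 0.254 to 3.11 CPM in Th17 WT. No fold was computed, since all groups lie at or near that floor. Such floors cover counting error only.

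Runx3 (ENSMUSG00000070691, chromosome 4, 135120652 to 135177990), a Runt factor gene that works with T-bet at Ifng, was 57.6, 50.5 and 62.5 CPM in Th1 WT and 52.5, 56.1 and 55.9 CPM in Th1 KO. The Th17 values were 73, 72 and 93.4 CPM in WT, against 56.1, 75.6 and 46.7 CPM in KO. The groups overlapped within each culture, with Th17 KO 2, a shallow library, inside the Th17 WT range. Runx3 fell 1.41-fold in Th17 KO (-0.49 ± 0.13 on the log2 scale, adjusted p = 0.0315), a call near the threshold. It was lost without Th17 WT 1 (adjusted p = 0.0882), WT 2 (0.0769), WT 3 (0.0674), KO 1 (0.0699) or KO 3 (0.143), in a fit of those groups alone (0.0898) and after thinning (0.112). The block by library code also lost it (adjusted p = 0.133). In Th1 the difference was -0.05 ± 0.10 (adjusted p = 0.882), and the interaction was -0.44 ± 0.16 (adjusted p = 0.346, 0.0312 with no filter on low counts).

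Zeb2 (ENSMUSG00000026872, chromosome 2, 44983632 to 45117395), a zinc finger repressor gene of terminal effector cells, followed the culture. It was 13.2, 13.4 and 11.4 CPM in Th1 WT, against 10.5, 9.8 and 10.6 CPM in Th1 KO. The Th17 libraries had 34.2, 36.8 and 53 CPM in WT, against 39.2, 39.9 and 40.3 CPM in KO. All 6 Th17 libraries lay above all 6 Th1 libraries. The KO difference was -0.30 ± 0.12 in Th1 (adjusted p = 0.17, ranges apart) and 0.09 ± 0.12 in Th17 (adjusted p = 0.767, ranges overlapping), and the interaction was 0.39 ± 0.17 (adjusted p = 0.413). Zeb2os lies on the opposite strand with 653 shared exon bases and had 10 counts, and the kit does not mark strand.

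Id2 (ENSMUSG00000020644, chromosome 12, 25093799 to 25097140) encodes an inhibitor of E-protein transcription factors. It was 326, 387 and 409 CPM in Th1 WT and 241, 253 and 297 CPM in Th1 KO, with no overlap. It was 207, 215 and 261 CPM in Th17 WT and 168, 199 and 238 CPM in Th17 KO, with overlap. The KO difference was -0.50 ± 0.14 in Th1 (adjusted p = 0.0945) and -0.14 ± 0.16 in Th17 (adjusted p = 0.746), and neither passed. In Th1 it passed with DESeq2 (adjusted p = 0.00314), limma-voom (0.0233), no filter on low counts (0.00153), thinned libraries (0.000869) and without Th17 KO 1 (0.0188) or Th17 KO 3 (0.0147). Under the block by library code Id2 passed in Th1 (adjusted p = 8.72e-11) and in Th17 (0.0195).

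Bhlhe40 (ENSMUSG00000030103, chromosome 6, 108660629 to 108666925), a helix-loop-helix factor gene that supports cytokine production, was 560, 532 and 542 CPM in Th1 WT, against 524, 507 and 524 CPM in Th1 KO. The Th17 libraries had 1016, 1063 and 1118 CPM in WT, against 950, 1045 and 1078 CPM in KO. The Th1 genotypes lay apart by a small step and the Th17 genotypes overlapped. The KO difference was -0.07 ± 0.06 in Th1 (adjusted p = 0.63) and -0.06 ± 0.06 in Th17 (adjusted p = 0.72).

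Over the list, 1 of the 7 tested genes passed as lower in Th1 KO (Hlx), where 2.92% of all genes tested were called lower and 4.61% were called in either direction. In Th17 KO 3 of 7 passed as lower (Hlx, Ifng and Runx3), against 4.02% called lower and 5.83% called in either direction. No member passed as higher in KO, where 1.69% of all genes were called higher in Th1 and 1.81% in Th17. The median log2 fold change of the 7 was -0.3 in Th1 and -0.49 in Th17, beside -0.002 and 0.002 over all genes tested. All 7 differences were negative in Th1 and 6 of 7 in Th17. The KO libraries all lay below the WT libraries for 5 of 7 in Th1, against 13.4% of all genes, and for 2 of 7 in Th17, against 9.59%. None of the 7 passed for the interaction in edgeR's test (0.591% of all genes did), and DESeq2 called Ifng.

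Th17 and Th1 cultures were then compared within each genotype. In WT, 6 of the 7 genes passed, where 47.1% of all genes tested did, 3 higher in Th17 (23.5% of all genes) and 3 lower (23.6%). In KO 4 of 7 passed, where 53.6% of all genes did, 2 higher (26.9%) and 2 lower (26.7%). Ifng was 3.96-fold lower in Th17 in WT (-1.99 ± 0.22 on the log2 scale, adjusted p = 8.6e-05) and in KO 10.8-fold lower (-3.43 ± 0.24, adjusted p = 2.65e-06). Hlx fell as well, by 0.77 ± 0.12 on the log2 scale in WT (adjusted p = 5.26e-06) and by 1.28 ± 0.12 in KO (adjusted p = 2.32e-09). Zeb2 rose by 1.56 ± 0.12 in WT (adjusted p = 6.63e-11) and 1.95 ± 0.11 in KO (adjusted p = 1.63e-13). Bhlhe40 rose by 0.96 ± 0.06 in WT (adjusted p = 1.77e-12) and 0.98 ± 0.06 in KO (adjusted p = 7.87e-13), close to a doubling in each genotype. The members did not all move one way: Ifng and Hlx were lower in Th17, Zeb2 and Bhlhe40 higher, and Tbx21 did not pass.

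Id2 and Runx3 passed between the cultures in WT only, a difference between the genotypes that did not pass as an interaction. Id2 fell by 0.75 ± 0.15 on the log2 scale in WT (adjusted p = 0.00265), and its difference in KO was -0.39 ± 0.15 (adjusted p = 0.0546). The KO value passed with DESeq2 (adjusted p = 0.00758), no filter on low counts (0.00241), thinned libraries (0.00945) and without Th1 WT 1 (0.0322), Th1 KO 1 (0.0473) or Th17 KO 3 (0.00302). Runx3 rose by 0.41 ± 0.12 in WT (adjusted p = 0.00814) and its difference in KO was -0.03 ± 0.11 (adjusted p = 0.872). The Id2 interaction was 0.36 ± 0.21 (adjusted p = 0.67, 0.0219 under the block by library code).

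**Figure D4:**
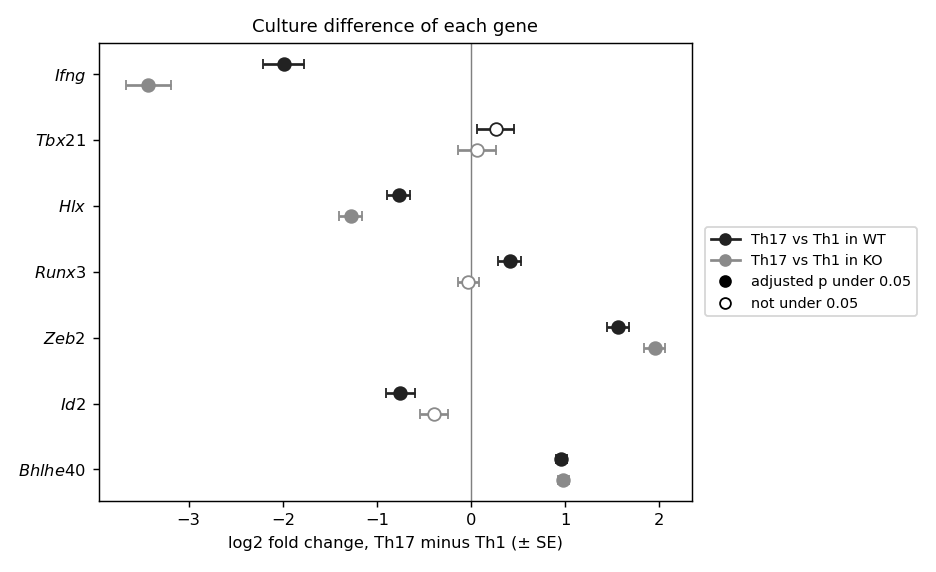
Log2 fold change of Th17 over Th1 for the 7 tested genes in WT and in KO, with bars of 1 SE and filled symbols for an adjusted p under 0.05. Ifng lies at -1.99 and -3.43, Zeb2 at 1.56 and 1.95, and Tbx21 within 0.26 of 0.

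The genes whose pattern over the 12 libraries was most like a member's were found by Pearson's r of log2 CPM among 10942 named genes. The libraries fall into 4 groups with large culture differences, so many genes reach a high r. For Ifng the first 5 were Cd48 (0.985), Mecom (0.984), Rnf4 (0.984), Slc43a3 (0.984) and Rab37 (0.983), and over the 9 deeper libraries these ranked 40 to 96. Cd48, which encodes a ligand of the receptor CD244, was 142 ± 2.26 CPM in WT and 138 ± 4.43 in KO in the Th1 cultures (SD, n = 3), and 97.6 ± 3.58 and 77.2 ± 8.68 CPM in the Th17 cultures. For Hlx they were Nlrc5 (0.99) and Grk6 (0.983). Nlrc5, the regulator of class I antigen presentation genes, was 389 ± 3.04 CPM in WT and 319 ± 6.33 in KO in the Th1 cultures, and 309 ± 6.84 and 236 ± 7.93 CPM in the Th17 cultures. Tbx21 was most like Myh9 (0.959) and Atf7ip (0.94), Runx3 like Atn1 (0.896) and Dnm2 (0.894), Zeb2 like Cox7a2l (0.992) and Akap8l (0.989), Id2 like Dennd4c (0.96) and Cflar (0.95), and Bhlhe40 like Traf1 (0.993) and Tnip3 (0.993). Over the 9 deeper libraries Atn1 had 0.816 (rank 18) and Dnm2 0.682 (rank 99) for Runx3, Cox7a2l ranked 42 for Zeb2, and the other genes named for these members and Hlx ranked 1 to 16. Among the members themselves r was 0.99 for Zeb2 with Bhlhe40, 0.91 for Ifng with Hlx and -0.85 for Ifng with Zeb2.

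Genes upstream of Ifng were examined in a list of 19 receptors, kinases, STATs and feedback genes of IL-12, IL-18, IL-2, IL-27 and interferon gamma signalling. In Th1 KO 5 of 19 were lower and 2 higher, and in Th17 KO 7 were lower and 1 higher. The median log2 fold change was -0.17 in Th1 and -0.14 in Th17. Of all genes tested, 2.92% were called lower and 1.69% higher in Th1 KO, and 4.02% and 1.81% in Th17 KO. Between the cultures 23.5% of all genes were called higher and 23.6% lower in Th17 in WT, and 26.9% and 26.7% in KO. The same shares stand beside the counts of each list below. In Th17 Il18r1, a subunit of the IL-18 receptor, fell from 245 ± 26.8 to 141 ± 19.8 CPM (-0.82, SE 0.09, adjusted p = 9.23e-06), and its partner Il18rap from 147 ± 25.6 to 81.9 ± 8.28 CPM (-0.80, SE 0.12, adjusted p = 0.00106). Ifngr1, a chain of the interferon gamma receptor, fell from 321 ± 17 to 209 ± 21.2 CPM in Th17 (-0.62, SE 0.07, adjusted p = 3.77e-06). Of the higher genes, Ifngr2, the other chain of that receptor, passed in Th1 from a very low level (0.173 ± 0.182 CPM in WT and 0.983 ± 0.417 in KO) and lost its call without Th1 KO 3 (adjusted p = 0.0613). Stat5b rose in both cultures (in Th1 by 0.48 ± 0.07, adjusted p = 2.67e-05, in Th17 by 0.50 ± 0.07, adjusted p = 6.52e-05). Of the IL-12 pathway itself, named after their values were seen, Il12rb2 gave -0.19 ± 0.06 in Th1 (adjusted p = 0.0757) and -0.28 ± 0.06 in Th17 (adjusted p = 0.00758), and Stat4 gave -0.29 ± 0.08 (adjusted p = 0.0279) and -0.18 ± 0.09 (adjusted p = 0.323). Il12rb2 lost its Th17 call without Th17 KO 3 (adjusted p = 0.0724) or the shallow libraries (0.0802) and with those groups alone (0.0636), and passed in Th1 without Th17 WT 1 (0.0479) or the shallow libraries (0.0354), with those groups alone (0.0173) and with limma-voom (0.00952). Stat4 lost its Th1 call without any 1 of Th1 WT 1, WT 2, WT 3, KO 2 or KO 3 (adjusted p from 0.0696 to 0.157) and with DESeq2 (0.117), and passed in Th17 without Th17 WT 1 (0.0439). The Th1 count of lower genes was 3 without Th1 WT 1, WT 2 or WT 3, 2 without Th1 KO 2 and 8 without the shallow libraries, with those groups alone or with limma-voom, and that of higher genes 1 without Th1 KO 3, with those groups alone or after thinning. The Th17 count of lower genes was 3 without Th17 KO 3 and 4 without the shallow libraries or with those groups alone. Between the cultures 12 of 19 were higher and 7 lower in Th17 in WT, and 9 and 6 in KO, with Jak2 higher (1.07 ± 0.08 in WT) and Ifngr1 lower (-1.14 ± 0.07 in WT).

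Effector and migration genes of Th1 cells, 18 of 20 listed with enough counts, had 2 lower in Th1 KO and 7 lower in Th17 KO, and none higher in either. Their median log2 fold change was -0.03 in Th1 and -0.62 in Th17. In Th17 Fasl, which encodes the death ligand, fell from 13.4 ± 5.62 to 4.98 ± 1.33 CPM (-1.78, SE 0.25, adjusted p = 0.000388, and -1.11 without Th17 WT 1), and Nkg7, a granule protein gene, from 58.8 ± 4.85 to 16.6 ± 5.44 CPM (-1.57, SE 0.23, adjusted p = 0.00346, 0.0946 without the shallow libraries). In Th1 the lower genes included Ly6c2 (-1.17 ± 0.27, adjusted p = 0.0497), whose call was lost without any 1 library but Th1 WT 1 and Th17 WT 1 (adjusted p up to 0.17). The Th17 count of lower genes was 4 without Th17 KO 1, where 1 was higher, and 3 without the shallow libraries. The Th1 count was 1 lower without any 1 of Th1 WT 2, WT 3, KO 1, KO 2, KO 3, Th17 WT 3 or KO 2, and 1 gene was higher without Th1 WT 1 or Th17 WT 1, after thinning or with limma-voom. Th17 cultures had 11 lower and 3 higher than Th1 in WT, and 13 and 3 in KO, with Cxcr3 higher (4.29 ± 0.27 in WT and 3.75 ± 0.22 in KO).

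Downstream of Ifng, 19 of 23 listed genes induced by interferon gamma were tested, and Gbp5 and Gbp6 were not analysed here. In Th1 KO 11 of 19 were lower and none higher, although Ifng itself did not pass there, and in Th17 KO 5 were lower and 1 higher. The median log2 fold change was -0.36 in Th1 and -0.19 in Th17. Gbp2, a guanylate-binding GTPase gene, fell from 834 ± 60.4 to 407 ± 31 CPM in Th1 (-1.03, SE 0.07, adjusted p = 6.02e-11). Iigp1, an immunity-related GTPase gene, fell from 67.1 ± 6.27 to 24.4 ± 2.6 CPM in Th1 (-1.45, SE 0.10, adjusted p = 7.62e-09). In Th17 Gbp7 fell from 251 ± 6.57 to 177 ± 10.1 CPM (-0.49, SE 0.07, adjusted p = 2e-05) and Gbp2 from 805 ± 33 to 627 ± 32.8 CPM (-0.36, SE 0.07, adjusted p = 0.00175, 0.117 without the shallow libraries). The Gbp genes are close copies, so reads they share make their separate values uncertain. The Th17 count was 3 lower without Th17 WT 1, 2 lower with those groups alone or after thinning and 8 lower with no filter on low counts, and 0 were higher without any 1 of Th17 WT 1, WT 2, WT 3, KO 2 or KO 3, without the shallow libraries or with DESeq2 or limma-voom. Th17 cultures, which held an antibody to interferon gamma, had 15 lower and 2 higher than Th1 in WT and 13 and 4 in KO. The WT count of higher genes was 1 without Th1 WT 3, Th17 WT 1 or Th17 WT 2.

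Paralogues and partners of the members, 18 of 19 tested, had 3 lower in Th1 KO and 5 lower in Th17 KO, with none higher and medians of -0.09 and -0.11. In Th17 these included Nfatc1 (-0.48 ± 0.09, adjusted p = 0.0015), Ets1 (-0.34 ± 0.07, adjusted p = 0.00175) and Runx2 (-0.81 ± 0.16, adjusted p = 0.00812), a paralogue of Runx3 that averaged 67.4 ± 12.5 CPM in WT and 34.9 ± 2.31 in KO. In Th1 Tcf4, an E-protein gene, fell from 22.1 ± 0.534 to 13.2 ± 3.08 CPM (-0.75, SE 0.12, adjusted p = 0.000268). The Th17 count was 2 without Th17 KO 1 or the shallow libraries and 3 without Th17 WT 2 or KO 3, and the Th1 count 1 without Th1 WT 3, KO 2 or KO 3 or after thinning and 5 with limma-voom, while 1 gene was higher without Th1 WT 1. Runx2 lost its call without Th17 KO 1 (adjusted p = 0.0677) and without the shallow libraries (0.126). Between the cultures 7 were higher and 8 lower in Th17 in WT (4 lower without Th17 WT 1 and 5 with DESeq2), beside 23.5% and 23.6% of all genes. In KO 5 were higher and 6 lower, near the 26.9% and 26.7% of all genes. Id3, a paralogue of Id2, was higher in Th17 (3.11 ± 0.28 in WT) and Fli1 lower (-0.73 ± 0.07 in WT).

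Genes of the competing programmes were listed for contrast. Of 9 tested Th17 genes 4 were higher in KO in Th1 and 4 in Th17, and none was lower, with medians of 0.86 and 0.68. Il17f rose in Th17 KO from 2.38 ± 1.34 to 11.6 ± 2.94 CPM (1.98, SE 0.27, adjusted p = 2.41e-05, and 2.66 without Th17 WT 1), and Il23r, a subunit of the IL-23 receptor, from 41.4 ± 2.63 to 71.1 ± 5.61 CPM (0.75, SE 0.12, adjusted p = 0.000145). The Th1 count was 2 without Th1 WT 1, WT 2 or KO 2 and 1 after thinning, and the Th17 count 2 with DESeq2 or after thinning. Of 13 tested factor genes of other helper lineages and memory, 1 was higher and 2 lower in Th1 KO, and 1 was higher in Th17 KO, with medians of 0 and -0.16. The count of higher genes was 0 in Th1 without Th1 WT 1, WT 2 or KO 2 or after thinning, and 0 in Th17 without any 1 of Th1 WT 2, Th1 KO 2, Th17 WT 1, WT 2, WT 3, KO 2 or KO 3, without the shallow libraries and with DESeq2. The lower genes in Th1, Foxo1 (-0.43 ± 0.07, adjusted p = 0.000334) and Bach2 (-0.45 ± 0.11, adjusted p = 0.0175), encode factors of quiescent T cells, and Bach2 lost its call without Th1 WT 1 (0.0809), KO 2 (0.0602) or KO 3 (0.0877). In Th1, 2 of the 13 were higher without Th17 WT 1, KO 1 or KO 2, with DESeq2, limma-voom, no filter or those groups alone. In Th17, 1 was lower without Th1 KO 3, Th17 KO 1 or Th17 KO 2, with DESeq2 or with those groups alone, and 2 were higher with no filter or after thinning. Between the cultures, the Th17 genes were used to check the label: 7 of 9 were higher in Th17 in each genotype, with Il23r at 41.4 ± 2.63 CPM in Th17 WT against 0.321 ± 0.0987 in Th1 WT, while 1 was lower in WT (2 without Th1 KO 2, Th1 WT 3 or Th17 WT 2) and 2 in KO. Of the 13 factor genes 10 were higher and 1 lower in Th17 in each genotype (2 lower in KO without Th1 KO 3), with Maf lower (-1.45 ± 0.25 on the log2 scale in WT).

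**Figure D5:**
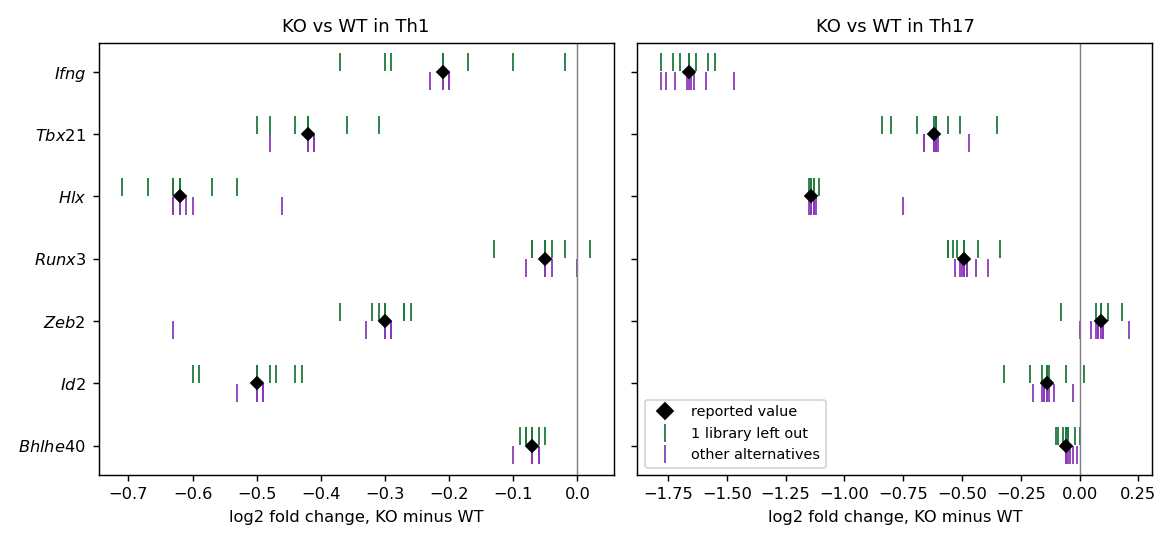
Log2 fold change of KO over WT for each tested member under each alternative analysis, in Th1 and Th17, with the reported value marked. Ifng in Th17 stays between -1.78 and -1.47, and Hlx in Th17 between -1.15 and -0.75.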

How the data were processed

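Poly-A RNA from 12 sorted samples of OT-II CD4 T cells was made into cDNA with a kit that does not mark strand, tagmented and sequenced in pairs, per the labels' protocols. The submitters' processing notes name featureCounts, TopHat2 and Bowtie2 and the build GRCm38 (mm10). Versions, annotation and the handling of multiply matching reads are not given in the sources used here. What the authors deposited are raw read counts per Ensembl gene ID, per the file values. Of 39179 IDs, 37693 (96.2%) were named with GENCODE M21 of GRCm38. Replicate numbers follow deposit order and only name libraries.

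Counts were scaled by TMM in edgeR 4.0.16 and filtered by filterByExpr over the 4 groups, leaving 12189 genes. All 12 libraries entered 1 quasi-likelihood fit, with Benjamini-Hochberg adjustment over all genes within each of 5 comparisons (KO minus WT in each culture, Th17 minus Th1 in each genotype, and the interaction) and a threshold of 0.05. The SE is the absolute log2 fold change over the root of F. Adjusted p-values are from this test unless another tool is named. Likeness used log2 CPM with a prior count of 2. Named genes were the members, Klrk1, up to 4 genes of smallest p from each of 6 lists per genotype comparison, up to 2 in each direction per culture comparison, the 5 genes most like Ifng and the 2 most like each other member, and genes overlapping a member or next to Ifng. Some genes that this rule names are not reported here, but they stay in the counts of the lists. Alternatives were RLE factors, DESeq2 1.42.0, limma-voom (limma 3.58.1), no low-count filter, thinned libraries, only the groups compared, a block by library code, leaving out the 3 shallow libraries or their dominant ID, and leaving out each library. The members, lists and alternatives were chosen with earlier results of these data known. Promoter windows came from RefSeq. R 4.3.3 and Python 3.11.15 were used.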

Additional observations from a re-analysis of the deposited data

Results flagged for a closer look

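For 7 of the genes named from the lists, the genotype difference in Th17 differed from that in Th1 by the interaction term (adjusted p under 0.05), given here as the Th17 difference minus the Th1 difference on the log2 scale. Higher terms were 0.68 for Gbp2, 0.92 for Iigp1 and 0.50 for Irgm1, all induced by interferon gamma, and 0.94 for Tcf4. Lower terms were -0.47 for Ifngr1, -1.36 for Fasl and -1.23 for Tmem176b. Gbp2 passed without each single library (adjusted p = 0.000259, at most 0.00737 in any alternative). The other 6 lost theirs without at least 1 library: Iigp1 without Th17 WT 1 (adjusted p = 0.124) or KO 3 (0.182), and the rest without 5 to 9 of the 12 libraries, with adjusted p up to 0.173 for Tcf4, 0.103 for Ifngr1, 0.421 for Fasl, 0.123 for Irgm1 and 0.123 for Tmem176b.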

How the results depend on the processing

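Of 714 values of the 35 member comparisons under alternatives, 664 kept their direction and their side of the threshold, 23 newly passed, 11 no longer passed and 16 changed sign. The sign changes were all of differences that did not pass. They were Runx3 in Th1 without Th1 WT 3 (0.02, range over single libraries left out -0.13 to 0.02) and Zeb2 in Th17 thinned (-0.00) and without Th17 WT 1 (range -0.08 to 0.18). In Th17 without Th17 KO 1 they were Id2 (range -0.32 to 0.02) and Bhlhe40 (range -0.10 to 0.00). Between the cultures in KO they were Tbx21 without the shallow libraries (-0.03) and without 1 library (-0.13 to 0.31), and Runx3 with DESeq2 (0.02), thinned (0.16) and without Th17 KO 3 (range -0.10 to 0.12). In the interaction they were Tbx21 without Th17 KO 1 (range -0.42 to 0.06) and Bhlhe40 without Th1 WT 1, Th17 WT 1 or Th17 KO 3 (range -0.03 to 0.07).

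In Th1 the 562 genes became 303 with DESeq2, 1074 with limma-voom, 196 thinned and 922 with only those groups, and in Th17 the 711 became 463 with limma-voom, 279 thinned, 356 with only those groups and 319 without the shallow libraries. Thinning gave 3322 in place of 5738 genes between the cultures in WT and 3558 in place of 6534 in KO, with fewer reads in the deep libraries. For the interaction the 72 became 207 with no filter and 33 thinned. Over single libraries left out the counts ran from 260 (without Th1 WT 2) to 679 in Th1, 411 (without Th17 WT 2) to 713 in Th17, 4197 to 5892 and 5551 to 6683 between the cultures in WT and KO, and 38 (without Th17 KO 3) to 108 for the interaction. Members past the threshold in Th1 were 2 in place of 1 with DESeq2, limma-voom, no filter or only those groups, and 1 to 2 over single libraries left out. They were 1 in place of 3 in Th17 when thinned (2 to 3 over libraries left out), and 1 in place of 0 for the interaction with DESeq2 or no filter. Apart from thinning, the filter and left-out libraries, the cause was not tested.

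A replicate block by neighbouring library codes, which the labels do not define as pairs, gave 1315 genes and 4 members in Th1, 1117 genes in Th17, and 329 genes and 2 members for the interaction. Under the block Ifng passed in Th1 (adjusted p = 0.00934), as did Tbx21 in Th1 (2.85e-06) and Th17 (6.04e-08), Id2 in Th1 (8.72e-11), Th17 (0.0195) and the interaction (0.0219) and Ifng in the interaction (1.73e-14), while Runx3 in Th17 did not (0.133). Deviations of libraries in a code pair correlated by 0.029 to 0.166 in Th1 and -0.062 to 0.226 in Th17. In Th1, not in Th17, every library correlated best with its own pair. Depth limits the Th17 groups most, where 3 counts equal up to 3.15 CPM in a shallow library.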
